A study of Mus musculus with 6 samples.

Results

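The insulin-like growth factor (IGF) system was examined in the transcriptome of mouse pulmonary artery smooth muscle cells (mPASMCs) after knockdown of *Snhg18*, a long noncoding RNA that hosts a small nucleolar RNA. The genes were chosen by symbol and comprise 10 of the 55487 genes in the count table: the ligands *Igf1* and *Igf2*, the receptors *Igf1r* and *Igf2r*, and the binding proteins *Igfbp2* to *Igfbp7*. Of these, 9 had enough reads to be tested, and *Igf2* did not. The mPASMCs were bought as cultured cells and transfected with a negative control siRNA (si-NC, 3 libraries) or with siRNA against *Snhg18* (si-Snhg18, 3 libraries). The labels give the genotype of the si-NC libraries as control, and both groups went through transfection. The sources used here state neither the oxygen level nor the time after transfection for the sequenced cells, nor that libraries of one group came from separate cultures, so p-values measure the spread between these libraries, which may be technical.

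IGF1 and IGF2 are secreted peptides that act through the IGF1 receptor, a tyrosine kinase that signals through insulin receptor substrates to PI3K and AKT and through RAS to the MAP kinases. The IGF2 receptor, which is also the cation-independent mannose 6-phosphate receptor, takes up IGF2 for degradation in lysosomes and does not carry the growth signal. The IGF binding proteins (IGFBPs) hold the ligands outside the cell, and proteases that cut them release the ligands. In vascular smooth muscle, IGF1 is known as a signal for growth and survival, and the cells make several IGFBPs themselves.

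Levels are given as read counts relative to library size after scaling between libraries (CPM) for one gene across libraries, and as CPM per kilobase of exon (RPKM) where different genes are compared. The libraries held 18097718 to 25988746 counted reads. *Snhg18* read 23.5, 22.4 and 22.1 CPM in si-NC libraries 1 to 3, and 10.6, 11.1 and 9.97 CPM in si-Snhg18 libraries 1 to 3, so the targeted RNA was lower in every si-Snhg18 library. The fitted fall was 2.14-fold (log2 fold change -1.10, SE 0.10, adjusted p = 0.00727 by edgeR's quasi-likelihood test with Benjamini-Hochberg adjustment). The smooth muscle markers *Acta2*, *Tagln*, *Myh11*, *Cnn1*, *Smtn*, *Lmod1* and *Des* were all measured, and their summed level was 1747 to 1894 CPM in si-NC and 1199 to 1848 CPM in si-Snhg18 libraries. *Tagln* fell (log2 fold change -0.51, SE 0.11, adjusted p = 0.0427 by the edgeR test). It alone of the 7 passed the edgeR test without the library number as a block. With that block 4 of the 7 fell, where 13.6% of all tested genes fell. Without the block DESeq2 called *Cnn1*, *Des* and *Tagln* lower and limma-voom *Tagln* alone. In the edgeR fit without the block 6 of the 7 had a negative log2 fold change, with a median of -0.48. Of the 6 fibroblast markers the sum was 514 to 584 CPM against 375 to 506 CPM, mostly from *Pdgfra*, while *Pi16* had at most 3 reads in a library. Of the 6 endothelial markers the sum was 12.4 to 13.95 CPM against 13.3 to 15.4 CPM. The 8 leukocyte markers summed to 18.3 to 41.7 CPM against 21.5 to 61.4 CPM, with *Adgre1* and *Cd3e* at 0. The 5 epithelial markers summed to 7.07 to 22.2 CPM against 1.11 to 7.30 CPM, nearly all of it *Krt18*, with *Sftpc* and *Scgb1a1* at 0. The part of these cell markers in the results was not tested, and in RNA from whole cultures fewer cells of a type and less RNA per cell cannot be told apart.

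The libraries numbered 2 in the 2 groups stood apart from those numbered 1 and 3, and same-numbered libraries deviated together from their group means. For numbers 1 and 3 this can follow from number 2 alone. Each comparison was therefore fitted without the number, as the main result, and again with the number as a block, which compares libraries pair by pair.

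Before the values, the promoters of the 5 genes that changed under at least 1 of these fits are shown, 3 of genes that fell and 2 of genes that rose. Shared control of these genes was not tested. Each sequence spans the 250 bases before and the 50 bases from the annotated start, is taken from RefSeq on GRCm38.p6 and reads 5′ to 3′ along the gene. All 10 genes had such a window. Capitals mark matches to short motifs that were searched on either strand, and overlapping matches share their capitals. A GC box was searched as GGGCGG, the core of the sites bound by Sp1. A TATA box was searched as TATAAA, the element that places the start of transcription. An E box was searched as CACGTG, the symmetrical site of the Myc family. The first 3 belong to the genes that fell and the last 2 to those that rose. *Igf1* lies at chr10:87860861-87861160 on the plus strand, *Igfbp4* at chr11:99040994-99041293 on the plus strand, *Igfbp6* at chr15:102143936-102144235 on the plus strand, *Igf2r* at chr17:12769657-12769956 on the minus strand and *Igfbp7* at chr5:77407996-77408295 on the minus strand.
Igf1: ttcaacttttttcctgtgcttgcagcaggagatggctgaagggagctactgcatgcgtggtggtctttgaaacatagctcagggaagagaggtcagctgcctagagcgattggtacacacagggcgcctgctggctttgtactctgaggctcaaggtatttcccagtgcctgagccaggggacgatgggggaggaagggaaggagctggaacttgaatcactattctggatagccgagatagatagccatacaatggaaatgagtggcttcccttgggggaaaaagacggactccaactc
Igfbp4: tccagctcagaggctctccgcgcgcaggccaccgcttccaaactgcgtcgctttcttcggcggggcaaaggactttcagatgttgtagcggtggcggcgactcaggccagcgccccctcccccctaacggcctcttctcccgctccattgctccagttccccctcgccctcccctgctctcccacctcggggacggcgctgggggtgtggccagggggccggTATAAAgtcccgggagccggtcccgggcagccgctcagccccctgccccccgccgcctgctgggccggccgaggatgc
Igfbp6: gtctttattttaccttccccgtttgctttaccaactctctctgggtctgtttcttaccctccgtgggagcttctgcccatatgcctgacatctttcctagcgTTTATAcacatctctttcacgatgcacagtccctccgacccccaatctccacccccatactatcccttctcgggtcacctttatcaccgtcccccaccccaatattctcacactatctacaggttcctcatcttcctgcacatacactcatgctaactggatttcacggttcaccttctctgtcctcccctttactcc
Igf2r: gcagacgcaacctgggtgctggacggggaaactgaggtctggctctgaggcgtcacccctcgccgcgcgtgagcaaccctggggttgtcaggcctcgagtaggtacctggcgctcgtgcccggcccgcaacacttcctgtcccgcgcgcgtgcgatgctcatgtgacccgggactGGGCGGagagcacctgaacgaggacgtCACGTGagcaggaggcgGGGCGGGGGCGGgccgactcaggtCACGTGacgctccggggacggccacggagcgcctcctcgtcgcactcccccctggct
Igfbp7: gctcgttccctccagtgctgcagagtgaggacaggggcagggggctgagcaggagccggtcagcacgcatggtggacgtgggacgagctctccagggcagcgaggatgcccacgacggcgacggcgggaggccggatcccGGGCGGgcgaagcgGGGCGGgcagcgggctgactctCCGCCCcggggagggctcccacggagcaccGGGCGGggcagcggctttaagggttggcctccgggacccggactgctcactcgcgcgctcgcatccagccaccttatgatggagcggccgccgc

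The windows of *Igf1*, *Igfbp4* and *Igfbp6* held no GC box, whereas that of *Igf2r* held 3 and that of *Igfbp7* held 4. A GC box occurred in 35.7% of the 32851 promoter windows of the same length. *Igfbp4* had a TATA box beginning 28 bases before the start and *Igfbp6* one on the opposite strand beginning 148 bases before it, against 13.6% of all windows with a TATA box. *Igf2r* held 2 E boxes, which were found in 7.15% of all windows. The GC content of the windows was 52.3% in *Igf1*, 71.3% in *Igfbp4*, 49.7% in *Igfbp6*, 70.7% in *Igf2r* and 73.3% in *Igfbp7*, beside a median of 52.7% over all windows. In the edgeR fit without the block, the tested genes with a GC box had positive log2 fold changes, and those without had negative ones. The former were *Igf1r* (0.17), *Igf2r* (0.27), *Igfbp2* (0.36) and *Igfbp7* (0.40), and the latter ran from -0.94 in *Igfbp4* to -0.08 in *Igfbp3*. With the block *Igfbp3* was at 0.01. The fitted intervals of *Igfbp2*, *Igfbp3* and *Igfbp5* included 0 in both fits. Whether GC boxes go with the change was not tested. *Igfbp2* held 3 in 1 of its 2 windows and *Igf1r* held 2, and neither gene was called, while *Igfbp3* and *Igfbp5* held 0 and were not called either. These matches describe the letters only. The annotated starts differ from those of the counted genes in some cases. The *Igf1* window lies inside the counted gene, which starts at chr10:87858265, and the *Igfbp6* window ends before its counted start at chr15:102144362.

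In si-NC cells 3 binding proteins had the highest levels of the system per kilobase of exon, and both ligands the lowest, with the receptors and the other binding proteins between. *Igfbp7* led with 785 ± 57.5 RPKM (SD, n = 3), followed by *Igfbp5* at 132 ± 64.8, *Igfbp6* at 68.1 ± 5.11, *Igf2r* at 59.4 ± 1.89, *Igfbp4* at 39.9 ± 8.73, *Igf1r* at 18.6 ± 0.172, *Igfbp3* at 13.4 ± 8.07, *Igfbp2* at 3.32 ± 0.445 and *Igf1* at 2.15 ± 0.276 RPKM. The ranges over the 3 libraries overlapped between the neighbours *Igfbp5* and *Igfbp6*, and between *Igf1r* and *Igfbp3*, so their order was not beyond the spread. The other neighbours did not overlap in range. *Igf2* stood last at 0.0877 ± 0.0759 RPKM. The order was the same when the length of each gene was taken as the union of its GENCODE exons, although for *Igf2* the length in the table was 650 bases and the union 5723 bases.

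With the knockdown, *Igf1* and *Igfbp6* fell in the fit without the block, and *Igfbp4* fell and *Igf2r* and *Igfbp7* rose in the blocked fit. These 3 were also called by DESeq2 without the block (adjusted p = 0.00518 for *Igfbp4*, 0.0146 for *Igf2r* and 0.0402 for *Igfbp7*), and *Igf2r* by limma-voom without it (adjusted p = 0.0465). Without the block 2 of the 9 tested genes fell, where 3.71% of the 14531 tested genes fell, and 0 rose, where 3.65% of them rose. Of the 9, 6 had an unadjusted p under 0.05 in this edgeR fit, where 24.9% of all tested genes did. Without the block DESeq2 called 2 of the 9 higher and 3 lower, where it called 6.58% and 6.85% of its genes, and limma-voom called 1 higher and 2 lower, where it called 3.36% and 3.77%. With the block 3 of 9 fell and 2 of 9 rose, where 13.6% of all tested genes fell and 13.6% rose. In 3 of 9 genes every si-Snhg18 library lay above every si-NC library, which held for 15.4% of all tested genes, and in 3 of 9 every one lay below, which held for 15.5%. The median log2 fold change of the 9 was -0.08, beside 0.01 over all tested genes.

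**Figure D1:**
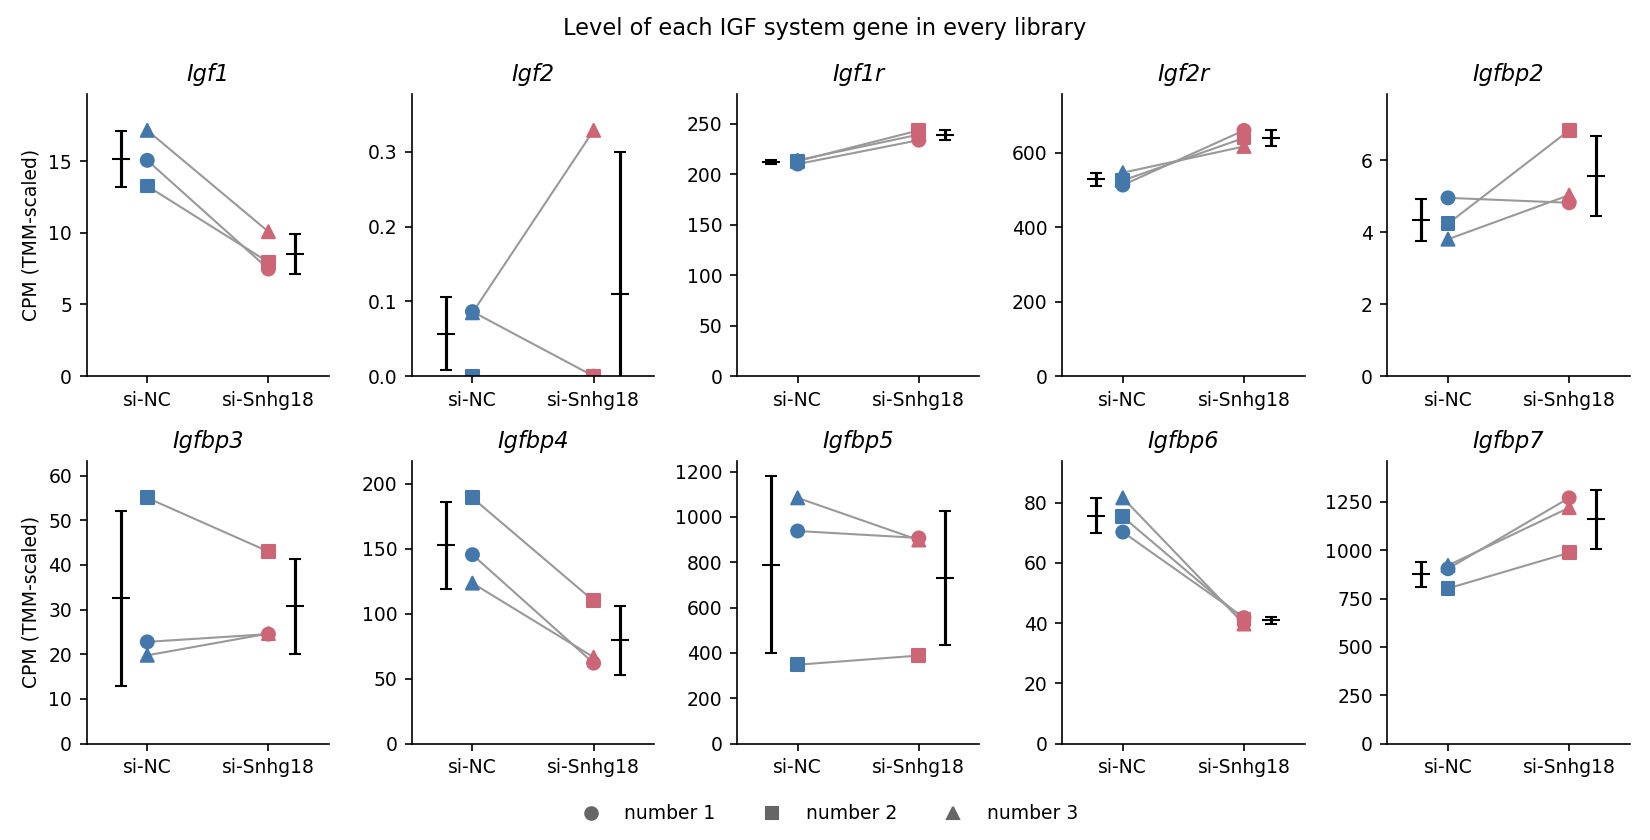
Level of each of the 10 genes in CPM (vertical axis, linear, from 0) in the 3 si-NC libraries (blue) and the 3 si-Snhg18 libraries (red); marker shapes give the library number, grey lines join same-numbered libraries, and black bars give the mean and SD (the lower bar of *Igf2* in si-Snhg18 runs below 0 and is not drawn there). The red points of *Igf1*, *Igfbp4* and *Igfbp6* lie below the blue ones, those of *Igf1r*, *Igf2r* and *Igfbp7* lie above them, and the squares of *Igfbp3* and *Igfbp5* lie apart from the other shapes in both groups.

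*Igf1* (ENSMUSG00000020053, chr10:87858265-87937042, plus strand) encodes the main growth-promoting ligand. It read 15.1, 13.3 and 17.1 CPM in si-NC libraries 1 to 3 and 7.47, 7.95 and 10.1 CPM in si-Snhg18 libraries 1 to 3. All knockdown libraries lay below all controls, and the fall was seen in each same-numbered pair. The fitted change was a 1.79-fold fall (log2 fold change -0.84, SE 0.17, adjusted p = 0.0369). This call was lost when any library but si-Snhg18 2 was left out, with an adjusted p of 0.158 without si-NC 1, 0.0799 without si-NC 2, 0.152 without si-NC 3, 0.09999 without si-Snhg18 1 and 0.0968 without si-Snhg18 3, while the log2 fold change stayed between -0.97 and -0.73.

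*Igf2* (ENSMUSG00000048583, chr7:142650766-142666816, minus strand), the fetal growth ligand of an imprinted locus, was near the limit of what these libraries can show. It had 2, 0 and 2 reads in si-NC libraries and 0, 0 and 6 reads in si-Snhg18 libraries. Only si-Snhg18 3, the library with the fewest reads, exceeded 3 reads, a floor that corresponds to 0.115 to 0.164 CPM and covers counting error only. No difference was detectable at this depth.

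*Igf1r* (ENSMUSG00000005533, chr7:67952827-68233668, plus strand) encodes the signalling receptor. It read 210.0, 212.9 and 213.8 CPM in si-NC and 233.7, 243.4 and 239.2 CPM in si-Snhg18 libraries. The groups did not overlap, with a narrow spread in each. The log2 fold change of 0.17 (SE 0.06, 95% interval 0.03 to 0.31) did not pass the test (adjusted p = 0.130, and 0.0530 with the block).

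*Igf2r* (ENSMUSG00000023830, chr17:12682406-12769664, minus strand) encodes the receptor that clears IGF2 and carries lysosomal enzymes. It read 513.0, 525.3 and 546.2 CPM in si-NC and 659.8, 639.5 and 616.6 CPM in si-Snhg18 libraries. Every knockdown library was above every control. The log2 fold change of 0.27 (SE 0.06) missed the threshold without the block (adjusted p = 0.0526) and passed it with the block (adjusted p = 0.0146). Without both libraries numbered 2 it was 0.27 again, with an adjusted p of 0.0268 unblocked and 0.0592 blocked. The antisense gene *Airn* overlaps *Igf2r* and had 40 to 141 reads a library against 11262 to 16689 for *Igf2r*. *Polr2b* on the opposite strand from *Igfbp7* had 841 to 1466 reads against 19670 to 32140, and the strand setting of the counting is not given in the sources used here.

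*Igfbp6* (ENSMUSG00000023046, chr15:102144362-102149511, plus strand), a binding protein that prefers IGF2, had the smallest p of the system. It read 70.2, 75.3 and 81.6 CPM in si-NC and 41.8, 41.2 and 39.7 CPM in si-Snhg18 libraries. The groups were far apart relative to their spread, and the libraries numbered 2 sat among the others. The fall was 1.85-fold (log2 fold change -0.89, SE 0.08, adjusted p = 0.00727). The log2 fold change ranged from -0.94 to -0.83 when single libraries were left out, and the call was lost without si-NC 1 (adjusted p = 0.0659), without si-NC 3 (0.0700) and without si-Snhg18 3 (0.0753). In those 3 edgeR fits 0 genes of the whole table were called, *Snhg18* and the pathway genes given here included, although 2512, 2731 and 2464 genes, in that order, had an unadjusted p under 0.05.

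*Igfbp4* (ENSMUSG00000017493, chr11:99041244-99054392, plus strand) encodes a binding protein that restrains IGF1 and is cut by the protease PAPP-A. It read 145.5, 189.3 and 123.6 CPM in si-NC and 62.0, 109.9 and 66.6 CPM in si-Snhg18 libraries. The groups did not overlap, and the library numbered 2 was the highest of its group in both. The change was -0.94 on the log2 scale (SE 0.26, adjusted p = 0.0825) without the block and -0.97 (SE 0.09, adjusted p = 0.000827) with it, a 1.96-fold fall. The libraries numbered 2 being left out, the log2 fold change was -1.07 with an adjusted p of 0.000719 unblocked and 0.000495 blocked.

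*Igfbp7* (ENSMUSG00000036256, chr5:77349240-77408041, minus strand) encodes a secreted protein with low affinity for IGFs that is deposited in the vascular matrix. It read 904.3, 802.6 and 921.3 CPM in si-NC and 1271, 987.1 and 1220 CPM in si-Snhg18 libraries. Every knockdown library was above every control, and the library numbered 2 was the lowest of each group. Its change was 0.40 on the log2 scale (SE 0.11, adjusted p = 0.0881) without the block and 0.40 (SE 0.06, adjusted p = 0.00364) with it, a 1.32-fold rise. Without the libraries numbered 2 it was 0.44, with an adjusted p of 0.00305 unblocked and 0.00771 blocked.

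*Igfbp5* (ENSMUSG00000026185, chr1:72857932-72874884, minus strand), a binding protein that attaches to the extracellular matrix, differed more between library numbers than between groups. It read 937.7, 348.2 and 1084 CPM in si-NC and 907.1, 388.4 and 897.8 CPM in si-Snhg18 libraries. In both groups the library numbered 2 was by far the lowest, and the groups overlapped. Between the groups its log2 fold change was -0.11 (SE 0.48, 95% interval -1.27 to 1.05) without the block and -0.05 (SE 0.08, 95% interval -0.25 to 0.14, adjusted p = 0.662) with it.

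*Igfbp3* (ENSMUSG00000020427, chr11:7206086-7213923, minus strand), the main carrier of IGFs in blood, showed the opposite of this. It read 22.8, 55.0 and 19.8 CPM in si-NC and 24.5, 43.0 and 24.6 CPM in si-Snhg18 libraries. The library numbered 2 was the highest of both groups. Between the groups its log2 fold change was -0.08 (SE 0.44, 95% interval -1.13 to 0.97) without the block and 0.01 (SE 0.13, 95% interval -0.30 to 0.32) with it.

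*Igfbp2* (ENSMUSG00000039323, chr1:72824503-72852474, plus strand), which lies 5457 bases from *Igfbp5* with the ends of the genes facing each other, was a low message. It read 4.96, 4.24 and 3.81 CPM in si-NC and 4.82, 6.84 and 5.04 CPM in si-Snhg18 libraries. The groups overlapped, with si-Snhg18 2 the highest. Its log2 fold change of 0.36 (SE 0.21, 95% interval -0.14 to 0.86) did not pass the test (adjusted p = 0.334, and 0.228 with the block).

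**Figure D2:**
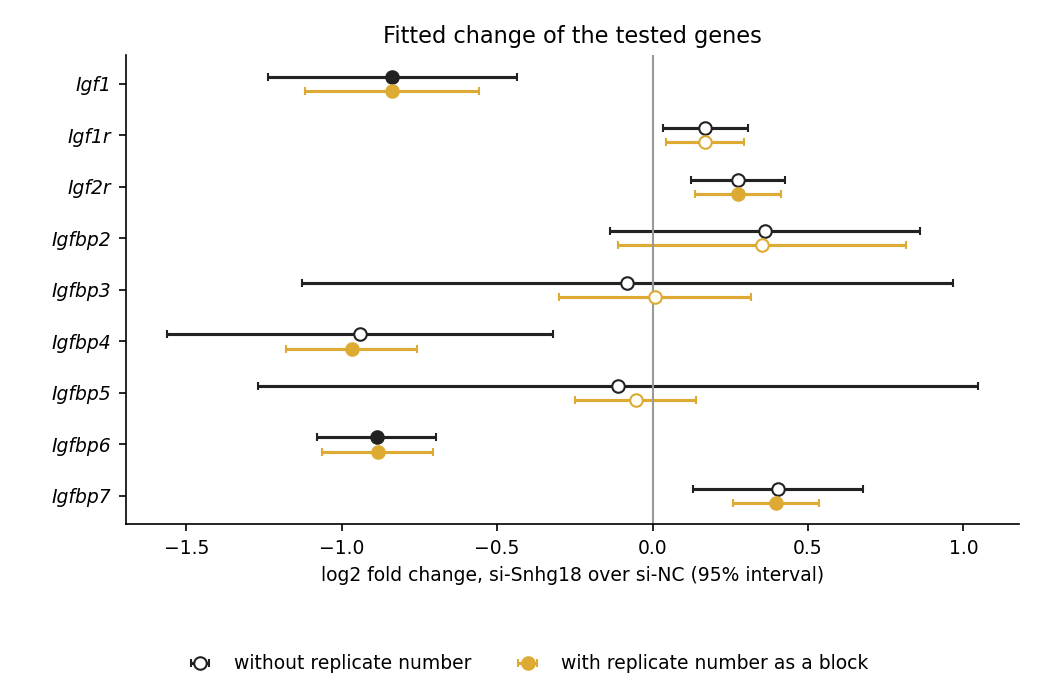
Fitted log2 fold change of the 9 tested genes, si-Snhg18 over si-NC (horizontal axis), with 95% intervals, without the replicate number (black) and with it as a block (yellow); filled points have an adjusted p under 0.05. The intervals of *Igfbp3*, *Igfbp4* and *Igfbp5* narrow with the block, while those of *Igf1r*, *Igf2r* and *Igfbp6* are of like width in both fits.

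The effect of the library number itself was tested after the values of *Igfbp3* and *Igfbp5* had been seen, with the 2 number terms of the blocked edgeR fit. It passed the test for *Igfbp5* (adjusted p = 0.00287), *Igfbp3* (adjusted p = 0.0114) and *Igfbp4* (adjusted p = 0.0178), 3 of the 9 tested genes, where 13.8% of all tested genes passed. *Igfbp5* was 2.59-fold lower in libraries numbered 2 than in the mean of numbers 1 and 3, with a log2 difference of -1.53 within si-NC and -1.22 within si-Snhg18. *Igfbp3* was 2.13-fold higher there, with log2 differences of 1.37 and 0.80. *Igfbp4* was 1.55-fold higher, with log2 differences of 0.50 and 0.77. *Igfbp7* did not pass (adjusted p = 0.0678), and for *Igf1*, *Igf1r*, *Igf2r*, *Igfbp2* and *Igfbp6* the adjusted p lay between 0.223 and 0.998. What the number stands for is not given in the labels.

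**Figure D3:**
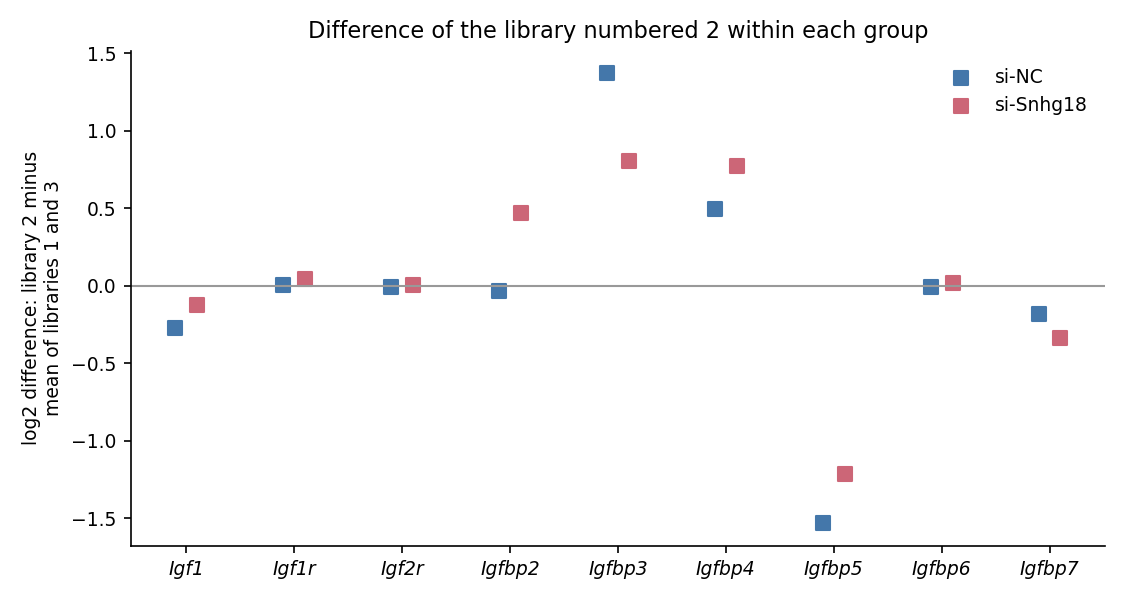
Log2 difference in CPM between the library numbered 2 and the mean of libraries 1 and 3 of the same group (vertical axis) for the 9 tested genes, in si-NC (blue) and si-Snhg18 (red). *Igfbp5* lies below 0 and *Igfbp3* and *Igfbp4* above 0 in both groups, while *Igf1r*, *Igf2r* and *Igfbp6* lie close to 0.

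The sum of the binding protein messages and its make-up within each library were then compared. The shares do not depend on the scaling between libraries, whereas the sum does. The 6 binding proteins summed to 1081, 920.2 and 1123 RPKM in si-NC and to 1357, 1038 and 1310 RPKM in si-Snhg18 libraries. The sum was higher in 3 of 3 same-numbered pairs, but the groups overlapped (1041 ± 107 against 1235 ± 172 RPKM, SD, n = 3 each, exact two-sided permutation test p = 0.3). On the log2 scale the difference of the sum was 0.24, and 0.25 with library totals without TMM factors. It was 0.09 when CPM were added without division by exon length, and 0.16 to 0.36 when single libraries were left out. *Igfbp7* made up 75.0, 78.2 and 73.5% of the sum in si-NC and 83.9, 85.2 and 83.5% in si-Snhg18 libraries. *Igfbp6* made up 5.84, 7.36 and 6.53% and then 2.77, 3.57 and 2.73%, and *Igfbp4* 3.51, 5.37 and 2.87% and then 1.19, 2.77 and 1.33%. Each of these 3 shares was separate between the groups, with an exact permutation p of 0.1 for each, the smallest that 3 against 3 can give, and 0.2 after adjustment over the 6 shares. The share of *Igfbp5* was 14.4, 6.30 and 16.1% in si-NC and 11.1, 6.23 and 11.4% in si-Snhg18 libraries, so the groups overlapped (exact permutation p = 0.5). *Igfbp3* and *Igfbp2* together held the rest, with exact permutation p-values of 0.7 and 0.8.

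**Figure D4:**
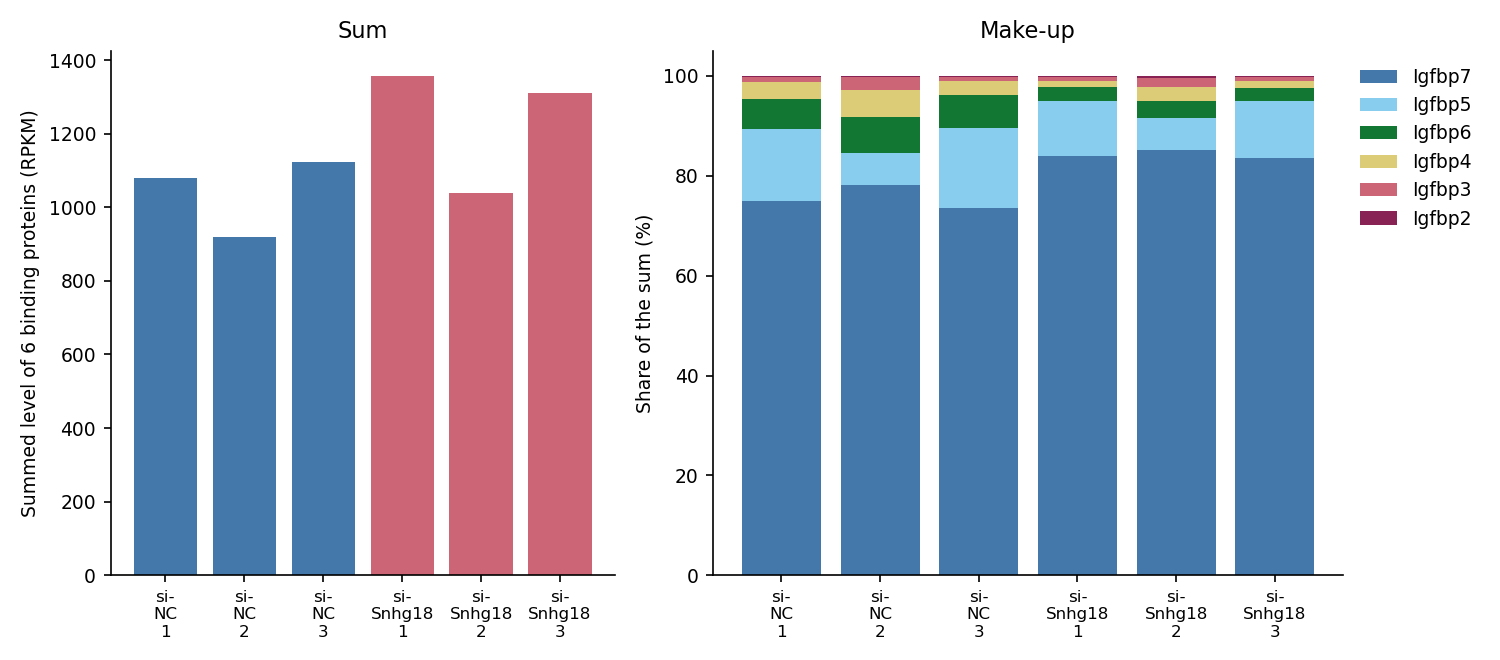
Left, summed level of the 6 binding proteins in RPKM in each library (si-NC blue, si-Snhg18 red, axis from 0); right, share of each binding protein in that sum in percent. *Igfbp7* takes 73.5 to 78.2% in si-NC and 83.5 to 85.2% in si-Snhg18 libraries, and the light blue share of *Igfbp5* is smallest in the libraries numbered 2.

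The balance of ligand and receptor messages was compared within libraries as well. The log2 ratio of *Igf1* to *Igf1r*, per kilobase of exon, was -3.11, -3.31 and -2.95 in si-NC and -4.27, -4.24 and -3.88 in si-Snhg18 libraries, a 2.01-fold lower ratio of the ligand to its receptor. The ligands *Igf1* and *Igf2* together against the 6 binding proteins gave log2 ratios of -8.90, -8.93 and -8.78 in si-NC and -10.32, -9.85 and -9.40 in si-Snhg18 libraries, a 1.98-fold lower ratio. In si-Snhg18 3 the ligand sum held 0.505 RPKM of *Igf2*, from 6 reads, beside 1.43 RPKM of *Igf1*. The log2 difference between the groups was -0.99, and -1.06 with GENCODE exon lengths. *Igfbp7* made up most of the binding protein sum in every library. The ratio of *Igf1r* to *Igf2r* was 0.319, 0.316 and 0.305 in si-NC and 0.276, 0.296 and 0.302 in si-Snhg18 libraries, a 1.07-fold lower ratio. In these 3 ratios the groups did not overlap, with an exact two-sided permutation p of 0.1 each, the smallest possible, and 0.1 after adjustment over the 3. The ratio of *Igf2* to *Igf2r* was not computed, since *Igf2* was at 0 in 3 libraries.

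The rest of the IGF system and its signalling genes were described by lists, each beside the share of all tested genes given above. Of 11 further genes of the IGF and insulin system 5 were tested. *Igfbp1*, which lies 3539 bases from *Igfbp3*, was at 0 in every library, as were *Igfbpl1*, *Ins1*, *Ins2* and *Insrr*, and *Igfals* had at most 1 read. By the edgeR fit without the block 0 of the 5 were called, with 1 at an unadjusted p under 0.05, and DESeq2 and limma-voom also called 0. With the block 2 of the 5 fell and 0 rose, where 13.6% of all tested genes fell and 13.6% rose. Those that fell were *Cd93* (log2 fold change -0.74, adjusted p = 0.0474) and *Lrp1*, an endocytic receptor that binds IGFBP3 (-0.17, adjusted p = 0.0407). *Insr*, the insulin receptor, was at 74.95 ± 6.04 CPM in si-NC and 80.9 ± 8.12 CPM in si-Snhg18 (SD, n = 3 each), with an adjusted p of 0.544.

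The 12 genes that cut or guard IGFBPs and IGFs were all tested. Without the block 0 were called by edgeR and 0 by limma-voom, 4 had an unadjusted p under 0.05 by edgeR, beside 24.9% of all tested genes, and DESeq2 called *Pappa2* higher and *C1s1* lower. DESeq2 called 6.58% of all its genes higher and 6.85% lower. With the block 5 of the 12 rose and 2 fell, where 13.6% of all tested genes rose and 13.6% fell. *Pappa2*, a protease that cuts IGFBP5 and IGFBP3, read 4.53, 2.08 and 4.57 CPM in si-NC and 16.8, 4.88 and 13.4 CPM in si-Snhg18 libraries. Its groups did not overlap, with the library numbered 2 the lowest in each. The log2 fold change was 1.64 (SE 0.51, adjusted p = 0.110) without the block and 1.58 (adjusted p = 0.00131) with it. *Stc2*, an inhibitor of the pappalysins, rose with the block (0.71, adjusted p = 0.00723), as did *Furin*, a protease that matures the IGF1 receptor (0.51, adjusted p = 0.00369), *Adam9* (0.23, adjusted p = 0.0227) and *Adam12* (0.34, adjusted p = 0.0104). *C1s1*, a complement protease, fell with the block (-0.90, adjusted p = 0.000946), and so did *Pcsk6* (-0.56, adjusted p = 0.0107). *Pappa*, the protease of IGFBP4, read 42.7 ± 16.9 CPM in si-NC and 37.4 ± 9.81 CPM in si-Snhg18 (SD, n = 3 each, adjusted p = 0.740).

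Downstream of the receptor, 22 of 23 genes of the PI3K, AKT and mTOR branch were tested, with a median log2 fold change of 0.20. Without the block 2 rose and 0 fell by edgeR, where 3.65% of all tested genes rose and 3.71% fell. With the block 9 rose and 0 fell, where 13.6% of all tested genes rose and 13.6% fell. In the edgeR fit without it 9 had an unadjusted p under 0.05, beside 24.9% of all tested genes. DESeq2 without the block called 6 higher and 0 lower, where it called 6.58% and 6.85% of its genes. Likewise limma-voom called 2 higher and 0 lower, where it called 3.36% and 3.77%. *Rptor*, the scaffold of mTOR complex 1, read 69.6, 65.8 and 63.9 CPM in si-NC and 84.3, 84.6 and 90.6 CPM in si-Snhg18 libraries. It was higher in every knockdown library than in every control, with a log2 fold change of 0.38 (SE 0.07, adjusted p = 0.0282). The genes that rose only with the block were the kinases *Akt1* (0.25), *Akt2* (0.24) and *Pdpk1* (0.28), the mTOR partner *Mlst8* (0.50), the PI3K subunits *Pik3ca* (0.37) and *Pik3r3* (0.79) and the adaptor *Irs2* (0.31), given as blocked log2 fold changes. *Irs1*, the other main adaptor of the receptor, was at -0.16 (adjusted p = 0.552 without the block), and *Mtor* itself at -0.02 (adjusted p = 0.897).

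In the RAS and MAPK branch, where all 15 genes were tested, 0 were called without the block by edgeR and 0 by limma-voom, 3 had an unadjusted p under 0.05 by edgeR, beside 24.9% of all tested genes, and DESeq2 called *Mapk3* higher. DESeq2 called 6.58% of all its genes higher. With the block 2 of the 15 rose and 2 fell, where 13.6% of all tested genes rose and 13.6% fell. The kinase *Mapk3* (0.24, adjusted p = 0.0154) and the exchange factor *Sos2* (0.29, adjusted p = 0.0277) rose, and the kinase *Araf* (-0.27, adjusted p = 0.0296) was among those that fell.

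Of the genes that dampen the signal 14 of 15 were tested, and *Grb14*, an adaptor that inhibits the insulin and IGF1 receptors, fell. It read 42.7, 46.8 and 41.8 CPM in si-NC and 17.7, 28.0 and 21.2 CPM in si-Snhg18 libraries, with no overlap. The fall was 1.96-fold (log2 fold change -0.97, SE 0.17, adjusted p = 0.0266). With the block *Nedd4*, a ubiquitin ligase, also fell (-0.19, adjusted p = 0.0462). Without the block 0 of the 14 rose and 1 fell by edgeR, where 3.65% and 3.71% of all tested genes did. DESeq2 and limma-voom also called 0 higher and 1 lower, where DESeq2 called 6.58% and 6.85% of its genes and limma-voom 3.36% and 3.77%. With the block 0 rose and 2 fell, where 13.6% of all tested genes rose and 13.6% fell. In the edgeR fit without it 3 had an unadjusted p under 0.05, beside 24.9% of all tested genes. *Grb10*, the imprinted relative of *Grb14*, was at 382 ± 65.5 CPM in si-NC and 414 ± 172 CPM in si-Snhg18 (SD, n = 3 each, adjusted p = 0.837).

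Of 17 FOXO genes and known FOXO targets 16 were tested, with a median log2 fold change of 0.26. *Gadd45a*, a stress response gene, read 5.39, 11.3 and 5.80 CPM in si-NC and 17.99, 33.92 and 20.04 CPM in si-Snhg18 libraries. It rose 3.19-fold (log2 fold change 1.67, SE 0.37, adjusted p = 0.0478), the only edgeR call of the list without the block. With the block *Sesn1* (0.89, adjusted p = 0.0144), *Sod2* (0.30, adjusted p = 0.0339) and *Irs2* (0.31, adjusted p = 0.0200) rose as well, while *Pdk4* (-0.67, adjusted p = 0.00151) and *Sesn3* (-0.45, adjusted p = 0.00738) fell. The factors *Foxo1*, *Foxo3* and *Foxo4* did not pass the test in either fit, with log2 fold changes of 0.17, 0.27 and 0.07 without the block. Over the list, edgeR and limma-voom without the block each called 1 higher and 0 lower, and DESeq2 1 higher and 1 lower. Of all their genes edgeR called 3.65% higher and 3.71% lower, limma-voom 3.36% and 3.77%, and DESeq2 6.58% and 6.85%. With the block 4 rose and 2 fell, where 13.6% of all tested genes rose and 13.6% fell. In the edgeR fit without it 3 had an unadjusted p under 0.05, beside 24.9% of all tested genes.

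Of 15 genes linked to *Igf2* by imprinting or by control of its RNA 12 were tested, and the antisense *Igf2os* had at most 1 read in a library. *Meg3*, a maternally expressed long noncoding RNA, was at 97.7 ± 14.6 CPM in si-NC and 42.3 ± 11.4 CPM in si-Snhg18 libraries (SD, n = 3 each). It fell 2.31-fold (log2 fold change -1.21, SE 0.21, adjusted p = 0.0265). *Hmga2*, a chromatin protein that drives *Igf2bp2*, fell 1.49-fold (-0.58, SE 0.10, adjusted p = 0.0273), whereas *Igf2bp2*, which binds *Igf2* mRNA, rose 1.24-fold (0.31, SE 0.07, adjusted p = 0.0469). In all 3 genes the groups did not overlap. With the block *Igf2bp1* (0.40, adjusted p = 0.0404) and *Zim1* (0.60, adjusted p = 0.0266) rose and *Peg3* (-0.27, adjusted p = 0.0277) fell. *H19*, the neighbour of *Igf2*, was low and did not pass the test, at 2.98 ± 0.559 CPM in si-NC and 2.69 ± 0.288 CPM in si-Snhg18 (SD, n = 3 each, adjusted p = 0.725). Over the list, edgeR, DESeq2 and limma-voom without the block each called 1 higher and 2 lower. Of all their genes edgeR called 3.65% higher and 3.71% lower, DESeq2 6.58% and 6.85%, and limma-voom 3.36% and 3.77%. With the block 3 rose and 3 fell, where 13.6% of all tested genes rose and 13.6% fell. In the edgeR fit without it 6 of the 12 had an unadjusted p under 0.05, beside 24.9% of all tested genes.

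**Figure D5:**
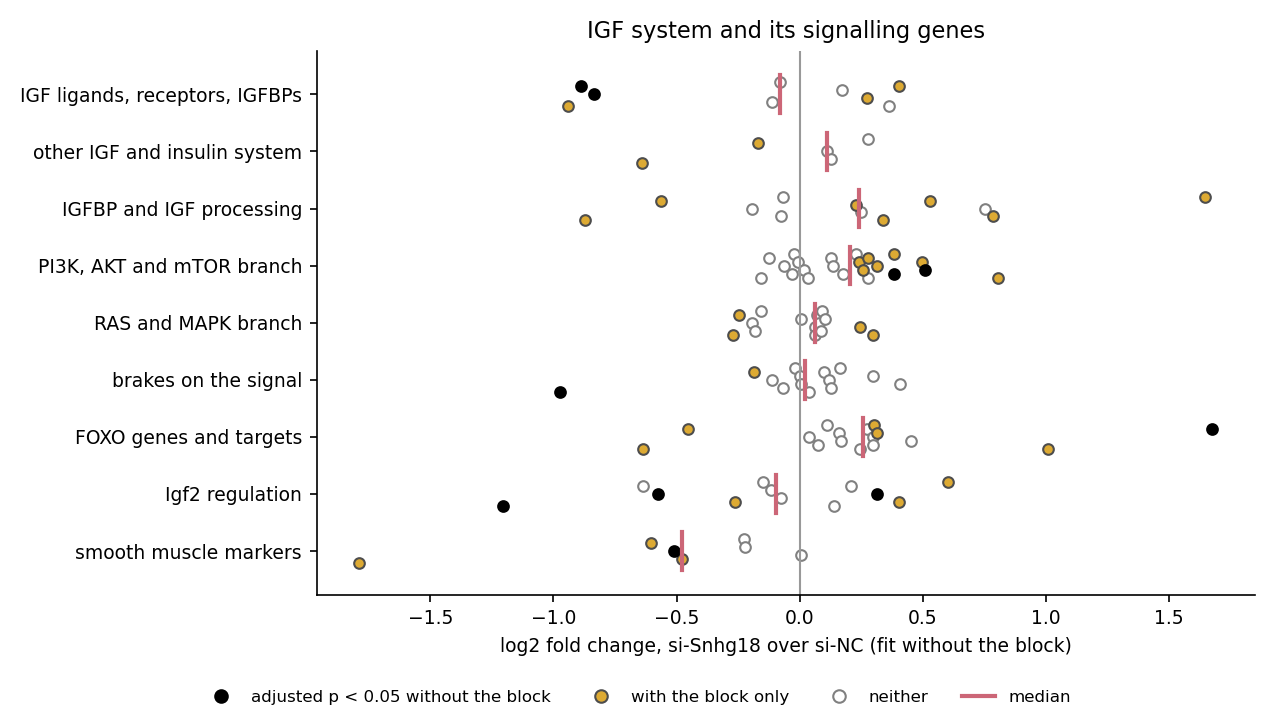
Log2 fold change, si-Snhg18 over si-NC, in the fit without the block (horizontal axis) for every tested gene of each list (rows; vertical scatter within a row only separates points); black points have an adjusted p under 0.05 without the block, yellow points only with it, white points in neither, and red bars give the list's median. The median lies at 0.20 for the PI3K, AKT and mTOR branch and at -0.08 for the IGF ligands, receptors and binding proteins.

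The genes whose log2 CPM over the 6 libraries was most like that of *Igfbp6* were *Tmx3* (Pearson r = 0.999), *Otud6b* (r = 0.994) and *Gpr137* (r = 0.994). These 6 points fall into the 2 treatment groups, and the 3 genes were picked as the highest of all tested genes, so r is a description only. *Tmx3*, a disulfide isomerase of the endoplasmic reticulum, read 112.6, 115.9 and 122.0 CPM in si-NC and 89.9, 88.5 and 88.7 CPM in si-Snhg18 libraries. *Igfbp6* is on the same chromosome as *Snhg18*, 69.9 Mb from it, and shares no overlap with it.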

How the data were processed

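mRNA libraries from the transfected mPASMCs were made with a stranded mRNA kit, and the table deposited by the authors holds raw read counts (unnormalized whole numbers) beside an exon length and a GRCm38.p6 position for each gene. The submitters' processing notes name HISAT2 and mm10. The counting program, its strand setting and the definition of the exon length are not given in the sources used here.

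Groups and numbers came from the sample titles. Counts were filtered (filterByExpr, at least 10 reads), scaled by TMM and tested with edgeR 4.0.16 (quasi-likelihood) in R 4.3.3, with Benjamini-Hochberg adjustment over 14531 genes and a threshold of 0.05. limma 3.58.1 (voom) and DESeq2 1.42.0 were alternatives, as were other scalings, other filters and leaving out libraries. RPKM used the deposited exon length. Sums, shares and ratios were tested by exact two-sided permutation with scipy 1.17.1, where 0.1 is the smallest p. Intervals are 95% intervals of the fit. The script was tested on simulated data.

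The titles give both groups the repeat numbers 1 to 3. Deviations from the group means correlated between same-numbered libraries with r = 0.41, 0.74 and 0.36 for numbers 1 to 3 over all tested genes. Deviations within a group sum to 0, so a shared difference of number 2 alone also gives a positive r at numbers 1 and 3. These values therefore do not show that the libraries numbered 1 or 3 are pairs. The block rests on the repeat numbers of the titles.

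All 10 members and *Snhg18* were named, with each pathway gene called in either fit (otherwise up to 3 of lowest p) and the 3 genes most like the member of smallest p. *Insr*, *Pappa*, *Irs1*, *Mtor*, *Grb10*, *H19* and the FOXO factors were named after their values were seen. Some called pathway genes are not reported here by name. Members and lists were chosen with earlier results of these data known. Reads carry no molecular identifiers. siRNA and protein sequences were not used here.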

Additional observations from a re-analysis of the deposited data

How the results depend on the processing

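Over 16 alternatives for 9 genes, 105 of 144 fold changes kept their direction and their side of the threshold, 8 lost a call, 20 gained one and 11 changed sign, and no called gene changed sign. The number of members higher, 0 in the edgeR fit without the block, was 2 with the replicate block, 1 with library totals, 2 by DESeq2, 1 by limma-voom, 1 with at least 50 reads in 3 libraries, 2 by DESeq2 with the block, 2 without both libraries numbered 2 and 1 without them with the block. The last 3 settings were chosen after seeing the data. Genes called over the whole table, 1069 without the block, numbered 3954 with the replicate block, 1861 by DESeq2, 3118 by DESeq2 with the block, 4020 without the libraries numbered 2 and 3504 without them with the block. Leaving out 1 library gave 0 to 2 members higher, 0 to 3 lower and 0 to 3281 genes in all. The log2 fold change of *Igfbp3*, -0.08, was 0.0074 with the replicate block, 0.035 by limma-voom, 0.017 by DESeq2 with the block, 0.20 without the libraries numbered 2, 0.21 without them with the block, and -0.41 to 0.53 on leaving out 1 library, and that of *Igfbp5* was -0.47 to 0.19. The cause was not tested. The replicate block changed no other call than those of *Igfbp4*, *Igf2r*, *Igfbp7* and the pathway genes named with it, and the sums and ratios kept their direction throughout. With 3 libraries a group, leaving out 1 removes calls through fewer samples as well as through its values.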
